A study of Mus musculus with 7 samples.

Results

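Imprinted genes of maternally methylated regions are described here, a set of 10 genes (Peg3, Usp29, Grb10, Mest, Peg10, Sgce, Snrpn, Plagl1, Impact and Nnat) named as genes of imprinted domains whose germline methylation mark comes from the oocyte. All 10 were among the 20643 genes with a value. The rule names the genes and uses no threshold on their values, although it was set with earlier results of these data known. They are described in prospermatogonia, the fetal male germ cells, of 2 mutants with an insertion in another imprinted domain. In that domain, H19/Igf2 on chromosome 7, the methylation mark comes from the father, and the study asked whether transcription across its imprinting control region (ICR) is needed for the mark to be set.

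Total RNA was sequenced from EGFP+ germ cells sorted from fetal testes at 15.5 dpc (the source name of the labels gives 15 dpc). H19Ter+neo/H19Ter+neo fetuses (3 libraries, replicates 5, 6 and 7) were homozygous for a transcription terminator at the entry of the ICR together with a Pgkneo selection cassette. H19Ter/H19Ter fetuses (2 libraries, replicates 3 and 4) were homozygous for the terminator after Cre had removed Pgkneo. WT fetuses (2 libraries, replicates 1 and 2) carried neither. The mutant lines go back to chimeras of a single targeted ES cell line, the mutant fetuses came from crosses within each line, and the sources used here do not give the breeding of the WT fetuses, so genotype and strain background cannot be told apart. Cells were sorted by an EGFP transgene driven by the Pou5f1 (Oct4) promoter from the TgOG2 line, and testes could be pooled for digestion. The paper calls the libraries biological replicates. The labels do not say whether they came from separate animals or litters. The p-values therefore measure the spread between these libraries only, and how much of it lies between litters is not known.

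Imprinted genes are expressed from only 1 parental allele in the soma. Where the oocyte sets the mark, the maternal allele of a germline differentially methylated region (gDMR) is methylated and, in most such domains, the gene at the gDMR is transcribed from the paternal allele. Marks are erased on both alleles in primordial germ cells, and in prospermatogonia, where paternal marks are set anew, the maternally methylated regions remain without methylation. After fertilization ZFP57 protects the marks by binding the methylated hexamer TGCCGC. Grb10 is the exception of expression among the 10, as it is transcribed from the maternal allele in most tissues and from the paternal allele in neurons. The RNA values given here do not separate the alleles.

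Promoter windows, reaching from 250 bases before to 50 bases after a transcription start, were taken from RefSeq on GRCm38.p6. Of these, 13 windows of 7 members were used. Windows for Peg10, Sgce and Impact are not shown. They did not enter the member counts and the member median below, which therefore do not cover all 10 genes. The start sites of Peg3 and Usp29 lie 147 bases apart on chromosome 7 and point away from each other, so that their windows share 263 bases. They are printed because these genes share a promoter region but not their size of change. Capitals mark CpG dinucleotides, of which the Peg3 window holds 13 and the Usp29 window 17.
Peg3, chr7:6730370-6730669, minus strand: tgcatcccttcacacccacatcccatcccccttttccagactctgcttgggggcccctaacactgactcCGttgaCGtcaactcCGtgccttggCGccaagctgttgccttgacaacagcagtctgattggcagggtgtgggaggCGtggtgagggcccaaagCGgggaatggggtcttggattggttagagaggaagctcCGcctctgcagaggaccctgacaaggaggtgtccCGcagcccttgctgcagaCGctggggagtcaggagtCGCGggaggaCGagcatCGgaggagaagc
Usp29, chr7:6730333-6730632, plus strand: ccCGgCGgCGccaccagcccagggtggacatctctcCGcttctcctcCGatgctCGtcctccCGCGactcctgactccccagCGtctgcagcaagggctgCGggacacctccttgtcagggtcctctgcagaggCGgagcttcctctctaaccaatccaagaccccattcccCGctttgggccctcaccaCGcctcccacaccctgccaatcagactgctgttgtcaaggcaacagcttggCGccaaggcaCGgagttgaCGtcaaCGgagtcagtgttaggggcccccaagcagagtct

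The hexamer TGCCGC was searched on both strands (as TGCCGC or GCGGCA). It stood in 6 of the 13 member windows (46.2%), against 3813 of all 32851 windows (11.6%), and in none of the windows of Peg3 and Usp29. The 6 windows belong to Grb10, Mest, Nnat, Plagl1 and Snrpn, and Mest counts 2 times because 2 of its windows start 3 bases apart. A match describes these letters only and is not a binding site. The windows of the member with the largest rise (Grb10), of a member that fell (Mest), of the member whose 2 H19Ter libraries lay farthest apart on the log2 scale (Plagl1) and of the member that passed in no comparison (Nnat) are shown with the hexamer in capitals.
Grb10, chr11:12037371-12037670, minus strand: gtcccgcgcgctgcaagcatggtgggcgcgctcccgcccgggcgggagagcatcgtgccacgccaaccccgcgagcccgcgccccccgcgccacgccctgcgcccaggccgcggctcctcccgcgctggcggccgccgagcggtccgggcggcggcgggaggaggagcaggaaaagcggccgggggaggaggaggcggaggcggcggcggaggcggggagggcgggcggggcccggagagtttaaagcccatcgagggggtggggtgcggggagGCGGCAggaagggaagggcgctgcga
Mest, chr6:30737800-30738099, plus strand: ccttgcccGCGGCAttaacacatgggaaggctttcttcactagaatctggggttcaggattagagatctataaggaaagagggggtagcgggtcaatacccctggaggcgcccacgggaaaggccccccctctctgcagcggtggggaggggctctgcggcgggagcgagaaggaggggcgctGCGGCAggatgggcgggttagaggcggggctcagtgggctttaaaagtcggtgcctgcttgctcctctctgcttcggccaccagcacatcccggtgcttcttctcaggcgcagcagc
Plagl1, chr10:13090582-13090881, plus strand: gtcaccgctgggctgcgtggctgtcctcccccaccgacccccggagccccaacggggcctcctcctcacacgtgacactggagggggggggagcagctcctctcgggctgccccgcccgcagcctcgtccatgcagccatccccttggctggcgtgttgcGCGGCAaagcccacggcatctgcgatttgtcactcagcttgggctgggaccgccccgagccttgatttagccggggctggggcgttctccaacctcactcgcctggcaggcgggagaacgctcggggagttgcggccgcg
Nnat, chr2:157559828-157560127, plus strand: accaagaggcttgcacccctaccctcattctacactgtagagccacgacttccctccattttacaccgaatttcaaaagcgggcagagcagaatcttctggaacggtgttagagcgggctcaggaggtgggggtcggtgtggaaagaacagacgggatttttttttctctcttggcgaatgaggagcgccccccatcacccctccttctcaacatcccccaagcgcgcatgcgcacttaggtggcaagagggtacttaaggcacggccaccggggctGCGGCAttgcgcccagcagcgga
The Grb10 window shown held 45 CpGs and 1 hexamer, and the Mest window shown 17 CpGs and 2 hexamers. Another Grb10 window held 9 CpGs and another Mest window 8 CpGs, both without the hexamer. The Plagl1 window held 26 CpGs and 1 hexamer, and the Nnat window 17 CpGs and 1 hexamer. The median over all 13 member windows was 13 CpGs, and over all windows 7.

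Levels are CPM, the read pairs of a gene per M of its library once libraries were scaled to each other, and differences are log2 fold changes from limma with Benjamini-Hochberg adjustment over all 20643 genes, called at an adjusted p under 0.05. Library depth was 84.1 to 87.3 M read pairs in H19Ter+neo, 37.5 to 51.2 M in H19Ter and 45.1 to 45.9 M in WT, so that depth differed with genotype. When all libraries were thinned to the same depth, the counts of members called were the same. Fetal male germ cell markers (15 of 15 with a value) summed to 5154 to 5279 CPM in H19Ter+neo, 4457 to 4582 CPM in H19Ter and 4619 to 4834 CPM in WT. These sums cover changes in both directions, with 6 higher and 5 lower in H19Ter+neo against WT and 3 higher and 5 lower in H19Ter against WT. Dazl, a germ cell RNA-binding protein, stood at 928 to 1083 CPM in H19Ter+neo, 767 and 812 CPM in H19Ter, and 1008 and 1160.1 CPM in WT, and was lower in H19Ter (-0.45, limma adjusted p = 0.00597). Pou5f1, whose promoter drives the EGFP used for sorting, stood at 148 to 185 CPM in H19Ter+neo, 249 and 249.7 CPM in H19Ter, and 257 and 272 CPM in WT, and was lower in H19Ter+neo (-0.66, limma adjusted p = 1.43e-04). Named after their values were seen, Nanos2, an RNA-binding protein of male germ cells, was lower in H19Ter+neo and H19Ter (-1.12 and -0.51, limma adjusted p = 2.09e-04 and 0.0481) and Dnmt3l, a cofactor of de novo methylation, was higher (1.21 and 1.20, adjusted p = 2.33e-05 and 3.30e-04). The part of these changes in the values of the 10 genes was not tested.

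Markers of other testis cells had values in every library. Sertoli cell markers (13 of 16 with a value) summed to 33.7 to 43.0 CPM in H19Ter+neo, 40.4 to 46.7 CPM in H19Ter and 35.1 to 36.8 CPM in WT, and endothelial markers (10 of 11) to 48.8 to 53.4, 51.2 to 51.4 and 41.8 to 42.4 CPM in the same order of genotypes. Endothelial markers had 6 higher and 1 lower in H19Ter+neo against WT and 3 higher and 1 lower in H19Ter, and Sertoli markers 2 higher and 2 lower in H19Ter+neo and 2 higher in H19Ter, among them Sox9, a Sertoli transcription factor (0.83 and 1.40, limma adjusted p = 0.00112 and 7.80e-04). None of the listed markers with a value was at 0. In bulk libraries fewer cells of a type and less RNA per cell cannot be told apart.

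Most of the 10 genes changed in prospermatogonia of both mutants, in both directions. In H19Ter+neo 9 of 10 passed the test against WT, with 4 higher (Grb10, Peg10, Sgce and Plagl1) and 5 lower (Peg3, Usp29, Mest, Snrpn and Impact), where 54.4% of all genes were called, 27.7% higher and 26.7% lower. In H19Ter 7 of 10 passed, with 3 higher (Grb10, Peg10 and Sgce) and 4 lower (Peg3, Mest, Snrpn and Impact), where 25.1% of all genes were called, 14.1% higher and 11.0% lower. Both comparisons use the same WT libraries and are not independent of each other. Between the mutants 3 of 10 passed in H19Ter+neo against H19Ter (Grb10 and Peg10 higher, Peg3 lower), where 27.7% of all genes were called, 12.5% higher and 15.2% lower.

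The libraries of 9 of 10 members did not overlap between H19Ter+neo and WT, with 4 higher and 5 lower, as held for 71.8% of all genes (36.6% higher, 35.2% lower). Between H19Ter and WT it was again 9 of 10, with 4 higher and 5 lower, and 67.5% of all genes (32.4% higher, 35.0% lower). Between H19Ter+neo and H19Ter it was 5 of 10, with 3 higher and 2 lower, and 56.3% of all genes (28.2% higher, 28.1% lower). With so few libraries, separation of the groups was common across all genes.

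All 10 members had a mean log2 CPM above 2, and among the 12005 genes at or above that level the share called was 58.8% in H19Ter+neo against WT, 27.7% in H19Ter against WT and 35.8% between the mutants. The median size of the change over the members, without its sign, was 1.12 on the log2 scale in H19Ter+neo against WT (all genes, 0.42), 0.73 in H19Ter against WT (0.27) and 0.34 between the mutants (0.26). With their signs, the changes of the members had medians of -0.12, -0.24 and 0.04. The members thus included larger changes than the median gene in both mutants, with no common direction. The count in H19Ter against WT was 4 without WT replicate 2, with Mest, Peg10 and Snrpn lost, and 5 without H19Ter replicate 4, and the share of all genes called in these fits was 6.82% and 9.17%.

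**Figure D1:**
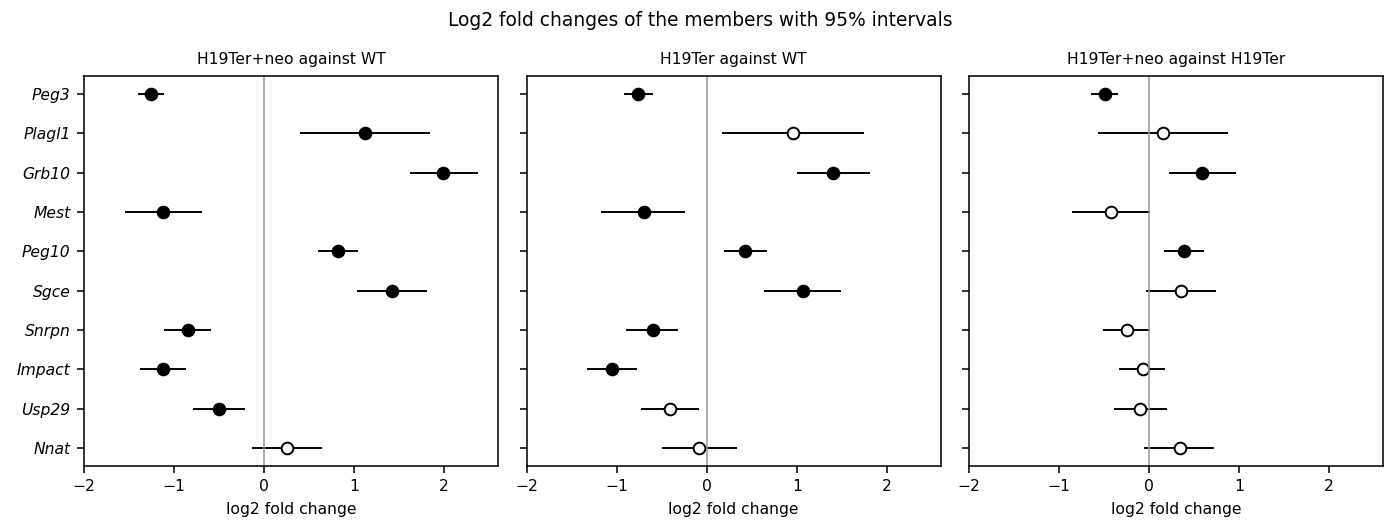
Log2 fold changes of the 10 genes (x axis) in H19Ter+neo against WT, H19Ter against WT and H19Ter+neo against H19Ter, with 95% intervals from limma. Filled points passed the test at an adjusted p under 0.05. In H19Ter+neo against WT the values run from -1.26 for Peg3 to 1.99 for Grb10, and 9 of 10 points are filled.

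Peg3 encodes a zinc finger protein that binds DNA (chr7:6703892-6730431, minus strand, 10 exon blocks). It had 189, 197 and 195 CPM in H19Ter+neo, 285 and 260.3 CPM in H19Ter, and 445 and 481 CPM in WT. The 3 genotypes did not overlap, with H19Ter+neo lowest, H19Ter between and WT highest. Peg3 fell by 1.26 on the log2 scale in H19Ter+neo against WT (SE 0.06, limma adjusted p = 1.09e-06) and by 0.76 in H19Ter against WT (SE 0.07, limma adjusted p = 1.45e-04). It was also lower in H19Ter+neo than in H19Ter (log2 fold change -0.49, SE 0.06, limma adjusted p = 4.80e-04), the only member whose calls in the 3 comparisons all held under every alternative run. Of all genes, 12.1% had a larger change in either direction in H19Ter+neo against WT, and 15.7% in H19Ter against WT.

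Usp29, which encodes a ubiquitin-specific protease, starts beside Peg3 on the other strand (chr7:6730578-6967219). It had 17.5, 13.4 and 13.7 CPM in H19Ter+neo, 15.7 and 15.8 CPM in H19Ter, and 19.2 and 22.7 CPM in WT. Both mutants lay below WT and overlapped each other. Usp29 fell by 0.50 in H19Ter+neo against WT (SE 0.13, limma adjusted p = 0.00736), a call lost without WT replicate 2 (-0.38, adjusted p = 0.0936). In H19Ter against WT the value was -0.41 (SE 0.14, limma adjusted p = 0.0564), which passed when H19Ter and WT were fitted without H19Ter+neo (adjusted p = 0.00966) or without H19Ter+neo replicate 5 or 7 (adjusted p = 0.0175 and 0.0450), or once a trend on GC content and length was taken out (-0.61, adjusted p = 0.00957). On the opposite strand 2582 of its 18078 exonic bases lie under exons of Zim3, which is annotated as an antisense transcript. The sources used here do not say whether the counting used strand. Zim3 passed in none of the 3 comparisons, at 2.17 to 3.10 CPM in H19Ter+neo, 1.84 and 2.97 CPM in H19Ter, and 3.04 and 3.28 CPM in WT.

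The ratio of the neighbouring genes was therefore not constant. Within libraries Usp29 had 0.0924, 0.0683 and 0.0700 of the CPM of Peg3 in H19Ter+neo, 0.0550 and 0.0609 in H19Ter, and 0.0432 and 0.0472 in WT. As log2 ratios these averaged -3.71 ± 0.24 (SD, n = 3) in H19Ter+neo, -4.11 ± 0.10 (SD, n = 2) in H19Ter and -4.47 ± 0.09 (SD, n = 2) in WT, with no overlap between the genotypes. The ratio was not tested.

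Peg10 and Sgce are the other pair that starts side by side, 99 bases apart on chromosome 6. Peg10 encodes a protein derived from a retrotransposon that the mouse placenta needs (chr6:4747306-4760517, plus strand). It had 239, 264 and 268 CPM in H19Ter+neo, 186 and 206 CPM in H19Ter, and 163 and 130.0 CPM in WT. The 3 genotypes did not overlap, in the reverse order of Peg3. Peg10 was higher in H19Ter+neo than in WT (log2 fold change 0.82, SE 0.09, limma adjusted p = 8.18e-05), in H19Ter than in WT (0.43, SE 0.10, adjusted p = 0.0158) and in H19Ter+neo than in H19Ter (0.39, SE 0.09, adjusted p = 0.0130). The call in H19Ter against WT was lost without WT replicate 2 (0.27, adjusted p = 0.143) and without H19Ter replicate 4 (0.35, adjusted p = 0.118), and also without a mean-variance trend (adjusted p = 0.0887) or once a trend on GC content and length was taken out (0.28, adjusted p = 0.0520). The call between the mutants was lost without H19Ter replicate 3 (0.32, adjusted p = 0.126) and without a mean-variance trend (adjusted p = 0.0787).

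Sgce encodes epsilon-sarcoglycan, a membrane protein whose human gene is mutated in myoclonus-dystonia (chr6:4674350-4747207, minus strand). It had 17.7, 23.3 and 23.1 CPM in H19Ter+neo, 15.5 and 17.7 CPM in H19Ter, and 9.56 and 6.54 CPM in WT. Every mutant library lay above both WT libraries. Sgce was 2.68-fold higher in H19Ter+neo than in WT (log2 fold change 1.42, SE 0.17, limma adjusted p = 9.53e-05) and 2.09-fold higher in H19Ter than in WT (1.07, SE 0.19, limma adjusted p = 0.00387). Both calls held under every alternative run. Between the mutants the value was 0.35 (95% interval -0.02 to 0.73, limma adjusted p = 0.145).

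Within libraries Peg10 had 13.5, 11.3 and 11.6 times the CPM of Sgce in H19Ter+neo, 12.0 and 11.6 times in H19Ter, and 17.0 and 19.9 times in WT. The mutants overlapped each other and lay below WT. As log2 ratios these averaged 3.60 ± 0.13 (SD, n = 3) in H19Ter+neo, 3.56 ± 0.03 (SD, n = 2) in H19Ter and 4.20 ± 0.16 (SD, n = 2) in WT. Both genes were higher in the mutants than in WT, and Sgce had the larger fold change.

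**Figure D2:**
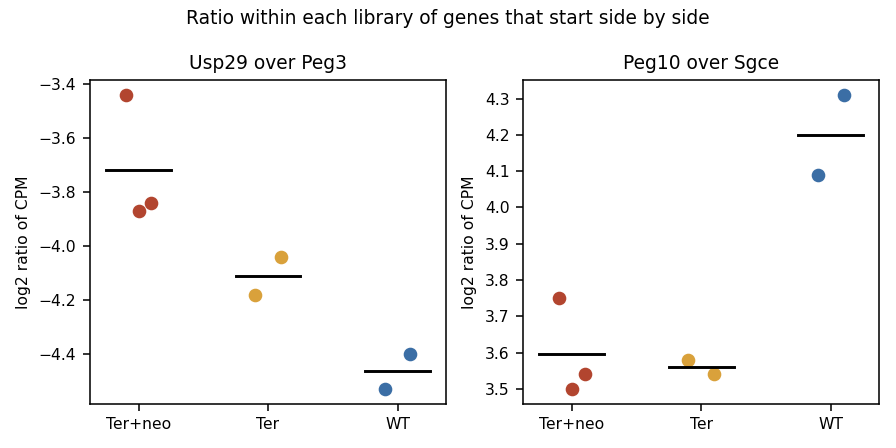
Log2 ratio of CPM (y axis) of Usp29 over Peg3 and of Peg10 over Sgce in each library, with the genotype mean as a line. For Usp29 over Peg3 the H19Ter+neo libraries average -3.71, the H19Ter libraries -4.11 and the WT libraries -4.47, and for Peg10 over Sgce the values are 3.60, 3.56 and 4.20.

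Grb10, an adaptor protein that restrains insulin and IGF1 receptor signalling and growth, showed the largest change of the 10 (chr11:11930508-12038683, minus strand). It had 139.6, 124 and 202 CPM in H19Ter+neo, 98.4 and 103 CPM in H19Ter, and 41.0 and 35.3 CPM in WT. The 3 genotypes did not overlap, with H19Ter+neo highest and WT lowest. Grb10 was 3.99-fold higher in H19Ter+neo than in WT (log2 fold change 1.99, SE 0.16, limma adjusted p = 1.55e-05) and 2.65-fold higher in H19Ter than in WT (1.40, SE 0.18, limma adjusted p = 0.00100), and both calls held under every alternative run. Of all genes, 4.05% and 4.49% had a larger change in these comparisons. It was 1.51-fold higher in H19Ter+neo than in H19Ter (0.59, SE 0.16, limma adjusted p = 0.0227), a call lost without H19Ter replicate 3 (adjusted p = 0.131), H19Ter replicate 4 (0.0908) or a mean-variance trend (0.104).

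Mest, which encodes a protein of the alpha/beta hydrolase family and is transcribed in growing mesenchyme, fell (chr6:30723547-30748465, plus strand). It had 27.9, 20.0 and 20.8 CPM in H19Ter+neo, 38.1 and 24.0 CPM in H19Ter, and 45.7 and 53.2 CPM in WT. All mutant libraries lay below WT, and the mutants overlapped each other. Mest fell by 1.12 in H19Ter+neo against WT (SE 0.19, limma adjusted p = 7.05e-04) and by 0.70 in H19Ter against WT (SE 0.21, limma adjusted p = 0.0329). The second call was lost without WT replicate 1 (adjusted p = 0.0660), WT replicate 2 (0.208) or H19Ter replicate 4 (-0.37, adjusted p = 0.239), and also without a mean-variance trend (0.123) or with voom weights (0.0550). On the opposite strand 912 of its 3945 exonic bases lie under exons of Copg2, a coat protein of Golgi vesicles, which passed in none of the 3 comparisons at 182 to 202 CPM in all libraries.

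Snrpn encodes a spliceosomal Sm protein and lies in the chromosome 7 region whose human counterpart is lost in Prader-Willi syndrome (chr7:59982495-60140219, minus strand). It had 15.1, 13.6 and 11.6 CPM in H19Ter+neo, 16.2 and 15.5 CPM in H19Ter, and 23.8 and 24.3 CPM in WT. No mutant library reached the WT libraries, and the 3 genotypes did not overlap. Snrpn fell by 0.85 in H19Ter+neo against WT (SE 0.11, limma adjusted p = 1.77e-04) and by 0.60 in H19Ter against WT (SE 0.12, limma adjusted p = 0.00798), and the second call was lost without WT replicate 2 (adjusted p = 0.0674) or H19Ter replicate 4 (0.0591). Of its 2159 exonic bases 72.7% were free of other genes on the same strand. The rest is shared with Snurf, which has no value here, and Gm38393, so its counts are uncertain.

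Impact encodes an inhibitor of GCN2, a kinase that slows translation when amino acids are short (chr18:12955852-12992950, plus strand). It had 28.0, 21.4 and 23.8 CPM in H19Ter+neo, 24.3 and 26.8 CPM in H19Ter, and 51.0 and 54.7 CPM in WT. Both mutants stood near the same level and far below WT. Impact fell by 1.12 in H19Ter+neo against WT (SE 0.11, limma adjusted p = 3.51e-05) and by 1.05 in H19Ter against WT (SE 0.12, limma adjusted p = 7.31e-04), and both calls held under every alternative run. Between the mutants the value was -0.07 (95% interval -0.32 to 0.17, limma adjusted p = 0.661).

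Plagl1 (Zac1) encodes a zinc finger transcription factor that in mouse regulates other imprinted genes (chr10:13060504-13131694, plus strand). It had 14.7, 8.31 and 11.0 CPM in H19Ter+neo, 15.4 and 6.37 CPM in H19Ter, and 4.85 and 5.30 CPM in WT. All mutant libraries lay above WT, with H19Ter+neo replicate 5 and H19Ter replicate 3 highest, and the mutants overlapped each other. Plagl1 was 2.17-fold higher in H19Ter+neo than in WT (log2 fold change 1.12, SE 0.32, limma adjusted p = 0.0134), a call lost without WT replicate 1 (adjusted p = 0.0787), WT replicate 2 (0.0627) or a mean-variance trend (0.0650). In H19Ter against WT the value was 0.96 (SE 0.35, limma adjusted p = 0.0686), with 0.33 (adjusted p = 0.458) without H19Ter replicate 3 and 1.60 (adjusted p = 0.0131) without H19Ter replicate 4. It also passed without H19Ter+neo replicate 5 (0.96, adjusted p = 0.0362) and when H19Ter and WT were fitted alone (adjusted p = 0.0145). Between the mutants it was 0.15 (95% interval -0.56 to 0.87).

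The 2 libraries highest in Plagl1 also stood highest in Leydig cell markers and, within their genotype, in markers of interstitial and peritubular cells. Cyp17a1, a Leydig enzyme of androgen synthesis, had 10.4, 1.40 and 0.649 CPM in H19Ter+neo, 8.40 and 2.14 CPM in H19Ter, and 3.24 and 4.74 CPM in WT. Col1a2, a collagen of mesenchymal cells, had 14.5, 3.65 and 2.44 CPM in H19Ter+neo, 20.6 and 6.73 CPM in H19Ter, and 7.10 and 10.8 CPM in WT. H19Ter+neo replicate 5 and H19Ter replicate 3 were high in both genes, as they were within their genotype in Mest. Leydig markers (8 of 10 with a value, none at 0) summed to 64.7 to 94.7 CPM in H19Ter+neo, 75.6 to 91.2 CPM in H19Ter and 72.3 to 78.6 CPM in WT. Scarb1 (35.1 to 43.9 CPM over all libraries) and Fdx1 (18.9 to 26.9 CPM) made up most of these Leydig sums. Interstitial and peritubular markers (15 of 16, none at 0) summed to 262 to 322 CPM in H19Ter+neo, 376 to 451 CPM in H19Ter and 428 to 446 CPM in WT. Ptch1, a Hedgehog receptor, made up most of each of these sums. It had 196 to 234 CPM in H19Ter+neo, 295 and 294 CPM in H19Ter, and 354 and 355 CPM in WT.

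Other genes of these lists went other ways. Neither Cyp17a1 nor Col1a2 passed in any comparison. Among the 15 interstitial and peritubular markers 2 were higher and 3 lower (Ptch1, Gli1 and Col1a1) in H19Ter+neo against WT, and 1 higher and 1 lower in H19Ter against WT. Pdgfrb, a receptor of perivascular and mesenchymal cells, named after its values were seen, averaged 10.7 ± 2.06 CPM in H19Ter+neo (SD, n = 3), 12.9 ± 1.35 CPM in H19Ter (SD, n = 2), with 3.42 and 2.99 CPM in WT. Like Plagl1 it was higher in every mutant library, and it passed in H19Ter+neo (log2 fold change 1.72, limma adjusted p = 2.68e-05) and in H19Ter (adjusted p = 1.36e-04).

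Without H19Ter replicate 3 and H19Ter+neo replicate 5, a choice made after seeing the data, Plagl1 was higher in H19Ter+neo than in WT by 0.91 (limma adjusted p = 9.85e-04) and its value in H19Ter against WT was 0.33 (adjusted p = 0.285). In the same fit Mest fell by 1.27 in H19Ter+neo (limma adjusted p = 9.07e-06) and by 1.04 in H19Ter (adjusted p = 0.00105), and the counts of members called against WT were again 9 (53.1% of all genes called) and 7 (17.2%). Between the mutants the count was 1 (Peg3, with 12.4% of all genes called), against 3 in the fit of all libraries, as Grb10 and Peg10 no longer passed. What part other testis cells have in the values of Plagl1 was not tested further. The genes whose profile over the 7 libraries was most like that of Plagl1 were Col5a2 and Lama2, which encode proteins of the extracellular matrix, with root mean square differences of centred log2 values of 0.15 and 0.19 among 14204 genes with a mean log2 CPM of at least 1.

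**Figure D3:**
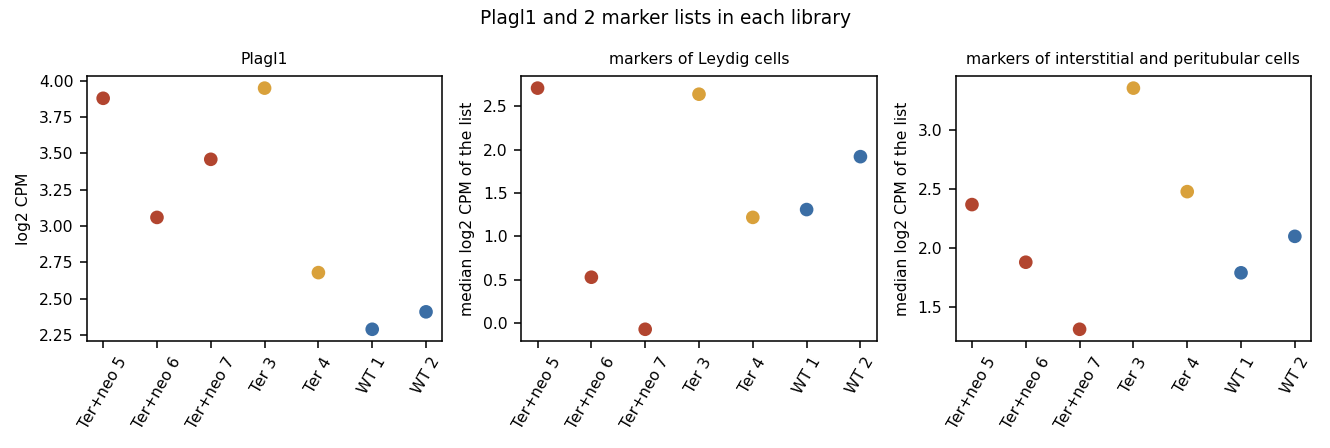
Log2 CPM of Plagl1 and the median log2 CPM of the Leydig and of the interstitial and peritubular marker lists (y axes) in each of the 7 libraries (x axis, with replicate numbers). H19Ter+neo replicate 5 and H19Ter replicate 3 are highest for Plagl1 and for the Leydig list, with list medians of 2.71 and 2.64.

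Nnat, which encodes a small membrane proteolipid of the endoplasmic reticulum best known from the brain, did not pass in any comparison (chr2:157560078-157562522, plus strand). It had 6.13, 8.69 and 7.16 CPM in H19Ter+neo, 6.24 and 5.29 CPM in H19Ter, and 6.79 and 5.44 CPM in WT. The ranges of the 3 genotypes overlapped. The log2 difference was 0.25 in H19Ter+neo against WT (95% interval -0.12 to 0.63, limma adjusted p = 0.226) and -0.08 in H19Ter against WT (95% interval -0.49 to 0.33, adjusted p = 0.780). The largest changes that these intervals allow are a rise of 0.63 and a fall to -0.49.

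**Figure D4:**
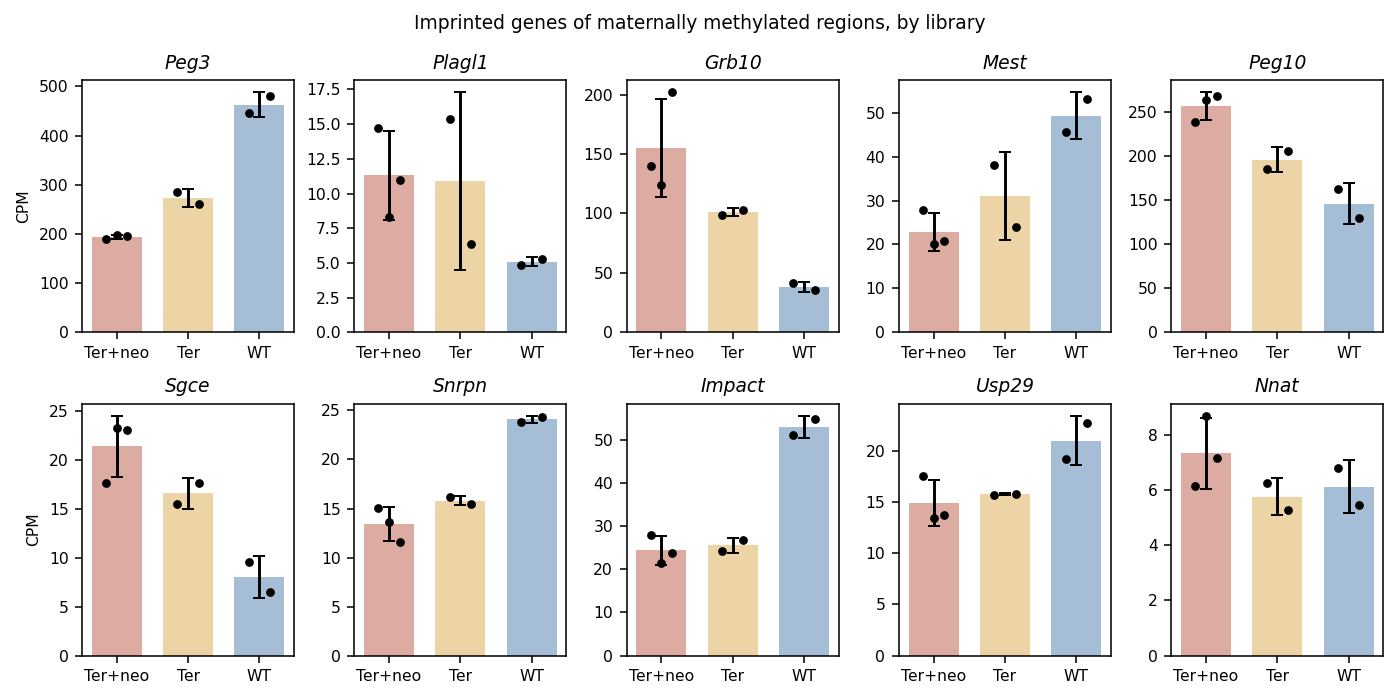
CPM (y axes, each from 0) of the 10 genes in H19Ter+neo, H19Ter and WT, with points for libraries, bars for genotype means and error bars of 1 SD (n = 3, 2 and 2). Peg3 has means of 194, 273 and 463 CPM and Grb10 of 155, 101 and 38.1 CPM, while Nnat has 7.33, 5.76 and 6.11 CPM.

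Compared per kilobase of exonic sequence, the order of the 10 levels differed between genotypes. In H19Ter+neo Peg10 was first at 38.6 ± 2.37 CPM per kb (SD, n = 3), followed by Grb10 at 17.1 ± 4.51 and Peg3 at 14.5 ± 0.300, the last 2 of which overlapped. In H19Ter Peg10 (29.4 ± 2.11 CPM per kb, SD, n = 2) stood above Peg3 (20.5 ± 1.32) and Grb10 (11.1 ± 0.363). In WT Peg3 was first at 34.7 ± 1.88 CPM per kb (SD, n = 2), above Peg10 at 22.0 ± 3.48, and Grb10 was sixth at 4.20 ± 0.444, below Mest, Snrpn and Impact. The lowest levels per kb were those of Usp29, Plagl1 and Sgce in every genotype, with Usp29 last in both mutants and Plagl1 last in WT. Plagl1 overlapped Sgce in all 3 genotypes and Usp29 in H19Ter.

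Neighbours in the same domains were described from a list of 34 genes, of which 25 had a value. In H19Ter+neo against WT 5 were higher and 6 lower (44.0%, where 54.4% of all genes were called), in H19Ter against WT 3 higher and 5 lower (32.0%, against 25.1%), and between the mutants 2 higher and 3 lower (20.0%, against 27.7%). These shares lie near those of all genes. Their median size of change was 0.35 in H19Ter+neo against WT and 0.43 in H19Ter against WT, while that of all genes was 0.42 and 0.27.

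Cobl, an actin nucleator beside Grb10, was also higher in both mutants. It had 29.8, 33.6 and 37.9 CPM in H19Ter+neo, 29.5 and 30.7 CPM in H19Ter, and 19.7 and 17.1 CPM in WT. Its log2 fold changes were 0.87 in H19Ter+neo and 0.71 in H19Ter against WT (limma adjusted p = 1.27e-04 and 0.00331). Ddc, on the other side of Grb10, passed in neither comparison (-0.39 and -0.07, limma adjusted p = 0.0985 and 0.831). Near Peg10 and Sgce, Ppp1r9a, which encodes the actin-binding protein neurabin, was higher in both mutants by 0.70 (limma adjusted p = 1.12e-04 in H19Ter+neo and 0.00129 in H19Ter), and Calcr, the calcitonin receptor, by 1.90 and 1.36 at a low level of 1.81 to 2.83 CPM in H19Ter+neo, 1.37 and 1.65 CPM in H19Ter, and 0.715 and 0.449 CPM in WT. In the same domain Asb4 went the other way, at 9.99 to 11.2 CPM in H19Ter+neo, 9.60 and 8.67 CPM in H19Ter, and 13.1 and 15.1 CPM in WT, and fell by 0.39 and 0.62. Direction was therefore not shared across this domain.

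Atp10a, a lipid flippase in the Snrpn domain, fell as Snrpn did, by 0.84 and 0.77 (limma adjusted p = 1.77e-05 and 3.43e-04). It had 57.8, 53.3 and 56.9 CPM in H19Ter+neo and 58.5 and 58.8 CPM in H19Ter, against 95.1 and 105 CPM in WT. In the same domain Ipw also fell in both mutants (-0.36 and -0.45), and Magel2, under 1 CPM, in H19Ter+neo (-1.13). Ndn (0.20 and -0.09), Mkrn3 (0.03 and -0.06) and Peg12 passed in neither comparison against WT. Ube3a, the ubiquitin ligase of Angelman syndrome, was lower in H19Ter, at 233 and 239 CPM, against 269 and 283 CPM in WT (-0.23, limma adjusted p = 0.0266). It had 260.3 to 279 CPM in H19Ter+neo, higher than in H19Ter (0.20, adjusted p = 0.0240). Of its 20626 exonic bases 5624 lie under exons of the opposite strand, 1803 of them under those of Ipw. Whether the counting used strand is not known. Osbpl1a, a sterol-binding protein beside Impact, fell by 0.41 in H19Ter+neo (limma adjusted p = 0.00189) and had a value of -0.05 in H19Ter (adjusted p = 0.685), and H19Ter+neo was also below H19Ter (-0.36, adjusted p = 0.0101). Between the mutants Casd1, a sialic acid acetyltransferase, was higher in H19Ter+neo than in H19Ter (0.57, limma adjusted p = 0.00221) and Peg12 was lower (-0.65, adjusted p = 0.0293).

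**Figure D5:**
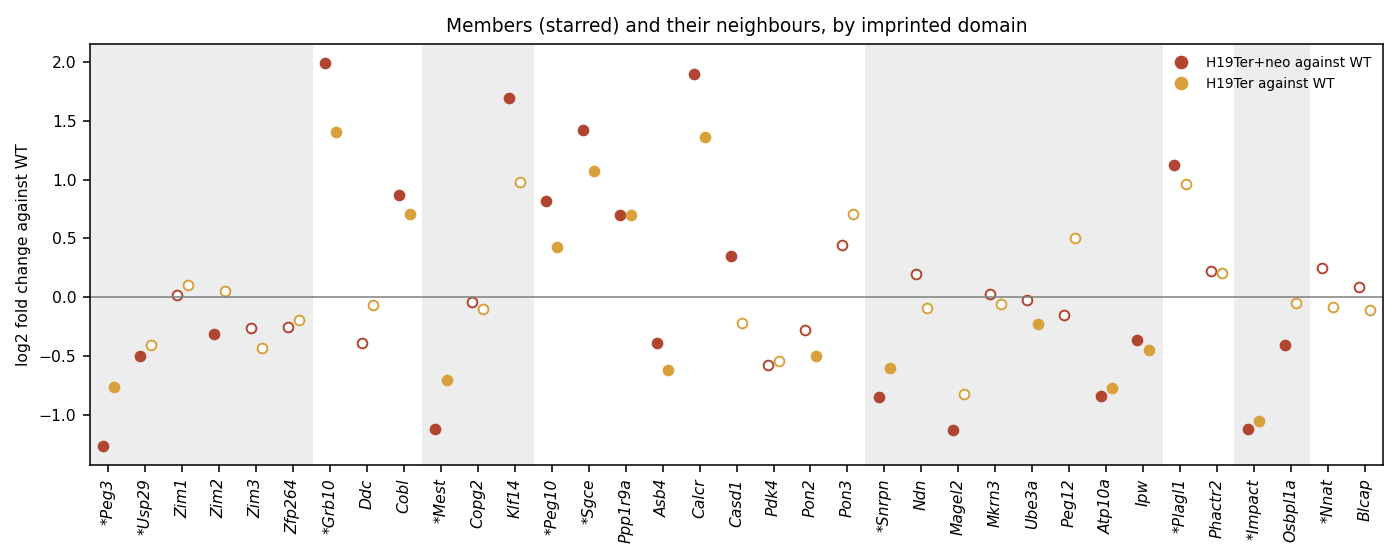
Log2 fold change against WT (y axis) of the 10 genes (starred) and the 25 neighbours with a value, grouped by domain (shaded bands), in H19Ter+neo and H19Ter. Filled points passed the test at an adjusted p under 0.05. In the Peg10 and Sgce domain Calcr stands at 1.90 and 1.36 and Asb4 at -0.39 and -0.62, and the row named Ipw is named Snhg14 in GENCODE.

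Genes of other maternally methylated regions (22 listed, 20 with a value) gave 6 higher and 5 lower in H19Ter+neo against WT (55.0%, where 54.4% of all genes were called) and 3 higher and 1 lower in H19Ter against WT (20.0%, against 25.1%). Between the mutants 3 were higher and 3 lower (30.0%, against 27.7%). Their median size of change was 0.34 in H19Ter+neo and 0.23 in H19Ter against WT, below the 0.42 and 0.27 of all genes and the 1.12 and 0.73 of the 10 members. These differences between lists were not tested.

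Among them Kcnq1ot1, the non-coding RNA that silences its domain in cis, had 88.5, 80.4 and 94.6 CPM in H19Ter+neo, 133 and 134 CPM in H19Ter, and 144 and 159 CPM in WT. It fell in H19Ter+neo against WT (by 0.79, limma adjusted p = 3.59e-05) and against H19Ter (by 0.60, adjusted p = 5.65e-04). Gnasas1, an antisense RNA of the Gnas domain, had 8.32, 7.19 and 7.66 CPM in H19Ter+neo, 12.6 and 10.6 CPM in H19Ter, and 16.3 and 19.2 CPM in WT, and fell by 1.20 in H19Ter+neo (limma adjusted p = 4.59e-05) and 0.61 in H19Ter (adjusted p = 0.0109). Igf2r, the receptor that removes IGF2, fell by 0.34 in H19Ter+neo (limma adjusted p = 8.24e-04), and Cdkn1c, a cyclin-dependent kinase inhibitor, was higher by 0.35 in H19Ter (adjusted p = 0.0356). Slc38a4, an amino acid transporter, was higher in H19Ter+neo than in WT (0.63, limma adjusted p = 0.00132) and than in H19Ter (0.73, adjusted p = 0.00174). Kcnk9, a potassium channel, was higher in H19Ter+neo than in WT (1.24, limma adjusted p = 6.23e-04), and Inpp5f, a phosphoinositide phosphatase, in H19Ter than in WT (0.35, adjusted p = 0.0170). Slc22a3, an organic cation transporter, was higher by 2.13 and 2.24 (SE 0.66 and 0.73, limma adjusted p = 0.0200 and 0.0462) at under 1 CPM in every library. Its WT libraries stood at 0.268 and 0.0225 CPM, so the size of this change is uncertain.

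The members did not share 1 profile over the 7 libraries. Centred log2 values of Peg3 differed from those of Mest by 0.22 (root mean square) and from those of Grb10 by 1.37. Usp29, its neighbour, stood at 0.34, and 2221st among 14204 genes in likeness to Peg3. The genes most like Peg3 were Slc43a1 and Gm43803 (0.06 and 0.08), and those most like Grb10 were Coch and Dock5 (0.08 each). For Peg10 they were Pnma5 and Asphd2 (0.04 and 0.05), for Mest Efemp2 and Slc23a1 (0.08 and 0.11), and for Impact Dock1 and Pitpnc1 (0.09 and 0.11). For Snrpn they were Stub1 and Rbm15b (0.04 and 0.05), for Usp29 Kif11 and Parp12 (0.03 and 0.04), and for Nnat Gm4945 and Dguok (0.08 and 0.10).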

How the data were processed

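Total RNA-seq libraries of sorted prospermatogonia (3 H19Ter+neo, 2 H19Ter, 2 WT) were the unit of replication. The authors used Trim Galore 0.6.0 for trimming and STAR 2.7.8 for alignment (mm10) and gene counts, and deepTools and edgeR appear in the submitters' processing notes. The sources used here give neither the strand setting nor the annotation release. The deposited values are log2 CPM with a prior count (mean 2.00 reads, scaled to each library). Undoing both gave whole reads for 100.0% of values in every library (tolerance 1e-06), from which CPM and depth were computed.

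Members and lists were chosen with earlier results of these data known. limma 3.58.1 (R 4.3.3) was fitted to the log2 values of all 7 libraries with genotype as the only factor and a mean-variance trend, and p-values, two-sided, were adjusted by Benjamini-Hochberg over 20643 genes (threshold 0.05). The fit was checked on simulated data. Named were every member, per list and comparison up to 4 genes of smallest p, genes sharing exons with a member, up to 2 defining genes of each marker list (with Nanos2, Dnmt3l, Gli1, Col1a1 and Pdgfrb added after their values were seen), and the 2 genes with the profile most like each member (those for Sgce are not reported here). Coordinates come from GENCODE vM21 (GRCm38, the build of mm10), and promoter windows from RefSeq. Alternatives changed the scaling, pseudocount, low-value filter, groups fitted, trend, weights, depth, GC and length trend, and libraries. Figures were drawn with matplotlib 3.10.9.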

Additional observations from a re-analysis of the deposited data

How the results depend on the processing

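Each of the 30 single log2 values (10 genes, 3 comparisons) was recomputed under 18 alternatives. Of these 540 values, 501 kept direction and side of the threshold, 22 no longer passed, 12 newly passed and 5 changed sign. Leaving out 1 library in turn gave 4 to 9 members called in H19Ter against WT (7 with all), 7 to 9 in H19Ter+neo against WT (9 with all) and 1 to 6 between the mutants (3 with all), where 6.82% to 28.4%, 37.4% to 53.9% and 11.3% to 26.2% of all genes were called. The lowest counts came without WT replicate 2, WT replicate 2 and H19Ter replicate 3, and the 6 without H19Ter+neo replicate 5, when Sgce, Mest and Snrpn newly passed. Without a mean-variance trend the count between the mutants was 1, as it was without H19Ter replicate 3 and H19Ter+neo replicate 5 together, and in both Grb10 and Peg10 were lost. Sign changed only where the call had not passed. These were Nnat in H19Ter against WT (0.08 without WT replicate 1, 0.04 without H19Ter replicate 4, range over single libraries left out -0.24 to 0.08), Plagl1 between the mutants (-0.48 without H19Ter replicate 4, -0.05 without H19Ter+neo replicate 5, range -0.48 to 0.79) and Impact between the mutants (0.02 without H19Ter+neo replicate 6, with -0.25 the lowest, without H19Ter replicate 3 and H19Ter+neo replicate 5). The cause was not tested.

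Over all genes, counts of calls in H19Ter against WT were 5187 in the fit of all libraries, 2858 without a trend, 3092 with voom weights and 1408 without WT replicate 2. With the same total per library 72.5% of these calls were higher, against 56.2%, and 32.6% were once a trend on GC content and length was taken out. That step took the median log2 fold change of all genes against WT from -0.01 to -0.13 (H19Ter) and from 0.01 to -0.12 (H19Ter+neo). Between the mutants the same total gave 32.0% higher calls, against 45.3%. Members kept their directions under each scaling. No paired analysis was possible because the replicate numbers of the labels run from 1 to 7 and none is shared between genotypes. With 2 or 3 libraries a genotype, small differences such as those of Nnat could not be resolved.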
